A study of Homo sapiens with 9 samples.

Results

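The cytosolic ribosomal protein genes are the genes whose products, together with ribosomal RNA, build the ribosome of the cytoplasm. They were taken from the table by name: symbols that start with RPL or RPS and a number, or RPLP0, RPLP1, RPLP2 and RPSA, with pseudogene and RPS6 kinase names left out, and with at least 10 TPM on average across the 9 libraries. TPM, the unit of the table, is a read-based level divided by transcript length and set to the same total in every library. The rule gave 82 genes of the 62703 rows in the table, 50 for proteins of the large subunit and 32 for proteins of the small subunit. Among them are 5 paralogues with an L or L1 at the end of the name, RPL22L1, RPL26L1, RPL39L, RPL7L1 and RPS27L. A further 4 rows matched the names but not the minimum, the highest of them at 0.0867 TPM. The pattern leaves out other genes of the cytoplasmic ribosome, of which FAU, RPL36AL and RACK1 are described beside the members.

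Polyadenylated RNA was sequenced in 9 libraries of cells labelled HepG2, a hepatocellular carcinoma line. Cells of all groups were kept in 750 µM of the saturated fatty acid palmitic acid for 24 h, and 3 libraries had nothing else. Another 3 came from cells that then had 20 µM curcumin, the yellow polyphenol of turmeric, for 12 h, and the last 3 from cells that had 20 µM curcumin and 5 µM CuCl2 for those 12 h. No group without the fatty acid and no vehicle group is described, nor did cells with palmitic acid alone get the extra 12 h, so a difference from them also holds whatever those hours changed. The labels do not say whether replicates were separate cultures, so p-values measure only the spread between these libraries.

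A ribosome holds 1 copy of nearly every ribosomal protein, except for the stalk proteins, and cells make the proteins in matched amounts, with surplus proteins degraded. In vertebrates most of the messenger RNAs start at a C followed by a run of pyrimidines, the terminal oligopyrimidine or TOP tract, through which mTORC1 signalling and the protein LARP1 control their translation and storage. Ribosomal proteins that stay outside ribosomes, RPL5 and RPL11 above all, can bind MDM2 and so stabilise p53.

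The start of the transcripts is shown for members that the results below turn on, because the TOP tract is the feature these transcripts are known for. The windows come from a set of RefSeq promoters (GRCh38.p14), and the set used here held 66 of the 82 members. Each window runs 5′ to 3′ from 10 bases before a listed start through the first 20 bases of the transcript. Capitals mark an unbroken pyrimidine run that begins with C at the start itself, where it reached at least 5 bases. RPL39, on the minus strand at chrX:119791611-119791640, had the longest run of these 66 members, 19 bases. RPL10 lies at chrX:154398367-154398396 (plus strand), RPSA at chr3:39406710-39406739 (plus), RPLP0 at chr12:120201092-120201121 (minus), RPL31 at chr2:101002279-101002308 (plus), RPS27 at chr1:153990752-153990781 (plus) and RPL41 at chr12:56116623-56116652 (plus).
RPL39: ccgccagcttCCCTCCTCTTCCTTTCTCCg
RPL10: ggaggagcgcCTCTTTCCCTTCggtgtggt
RPSA: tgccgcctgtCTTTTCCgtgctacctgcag
RPLP0: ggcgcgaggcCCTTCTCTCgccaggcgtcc
RPL31: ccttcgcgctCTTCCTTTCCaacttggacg
RPS27: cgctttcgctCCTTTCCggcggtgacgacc
RPL41: cttcgcctttCTCTCggccttagcgccatt

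Paralogues are set against the standard genes in the next windows, because the tract is present in some of them and absent in others. RPL26 (chr17:8383174-8383203, minus strand) had a run of 12 bases, whereas RPL26L1 (chr5:172958719-172958748, plus strand) had none at either of its 2 listed starts. RPL22 (chr1:6199576-6199605, minus) and RPL22L1 (chr3:170870176-170870205, minus) had runs of 7 and 6 bases. RPS27L (chr15:63157458-63157487, minus) and RPL7L1 (chr6:42879606-42879635, plus) had none.
RPL26: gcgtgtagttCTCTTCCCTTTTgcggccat
RPL26L1: tccaggggtcggcgaacgaaacgcggagct
RPL22: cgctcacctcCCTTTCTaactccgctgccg
RPL22L1: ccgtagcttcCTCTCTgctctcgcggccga
RPS27L: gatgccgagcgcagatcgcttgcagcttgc
RPL7L1: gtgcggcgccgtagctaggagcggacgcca

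Of the 66 members in the RefSeq set used, 47 (71.2%) had a pyrimidine run of 5 or more bases from a C at a listed start. Their median run was 8 bases. The same search found one in 7.06% of the 9621 other tested genes and in 4.98% of all 27239 other genes of the RefSeq set. Where a gene had several listed starts, the one with the longest run was used, for members and other genes alike. In the 300 bases from 250 before to 50 after the start, searched on both strands, CCGGAAG (an ETS-type motif) occurred in 24 members, 36.4%, against 23.5% of the other tested genes. AAGATGG (YY1-type) occurred in 13.6% of members against 9.86%, TATAAA in 9.09% against 8.25%, and CACGTG (the E-box) in 7.58% against 13%. These are counts of letters and do not show that a factor binds.

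The members were spread over 21 chromosomes in GENCODE 29, with 12 on chromosome 19 and 4 on the X. In 28 of the 82 members (34.1%) the gene's span held at least 1 small nucleolar RNA gene on the same strand, 60 such RNA genes in all. The share among 11146 other tested protein-coding genes was 1.51%. Small nucleolar RNAs guide chemical modification of ribosomal RNA and are often processed from introns of ribosomal protein genes, but libraries of polyadenylated RNA are not made to capture them.

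Depth per library is unknown, since TPM keeps none, and no counting interval can be given. In each library 13208 to 13737 genes had 1 TPM or more, and genes encoded by mitochondrial DNA took 10.1% to 13% of the TPM. The 10 markers of hepatocytes and of HepG2, among them ALB, APOA1 and AFP, were each under 1 TPM, 5 of them at 0 in all libraries, and together reached 0.74 to 2.2 TPM per library. The data go against the labelled liver line in that respect. The 4 epithelial markers KRT7, KRT8, KRT18 and EPCAM, the last under 1 TPM, summed to 2505 to 3812 TPM. The markers of endothelium (4 of 4), fibroblasts (4 of 5) and leukocytes (3 of 5) were mostly under 1 TPM.

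Palmitic acid alone gave shares of 14.7%, 16.3% and 18.8% of all TPM on the 82 genes. Curcumin gave 17.7%, 16.2% and 17.9%, and curcumin with CuCl2 gave 17.9%, 16.8% and 17.2%. Both the lowest and the highest library of the 9 therefore belonged to palmitic acid alone, and the 3 groups overlapped. The means were 16.6% ± 2.08, 17.3% ± 0.925 and 17.3% ± 0.553 (SD, n = 3). The exact two-sided permutation p was 0.7 for curcumin against palmitic acid alone, 0.7 for curcumin with CuCl2 against palmitic acid alone and 0.9 between the curcumin groups, where the smallest p that 3 libraries against 3 allow is 0.1. The adjusted values over the 6 tests of this kind were 0.84, 0.84 and 0.9.

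**Figure D1:**
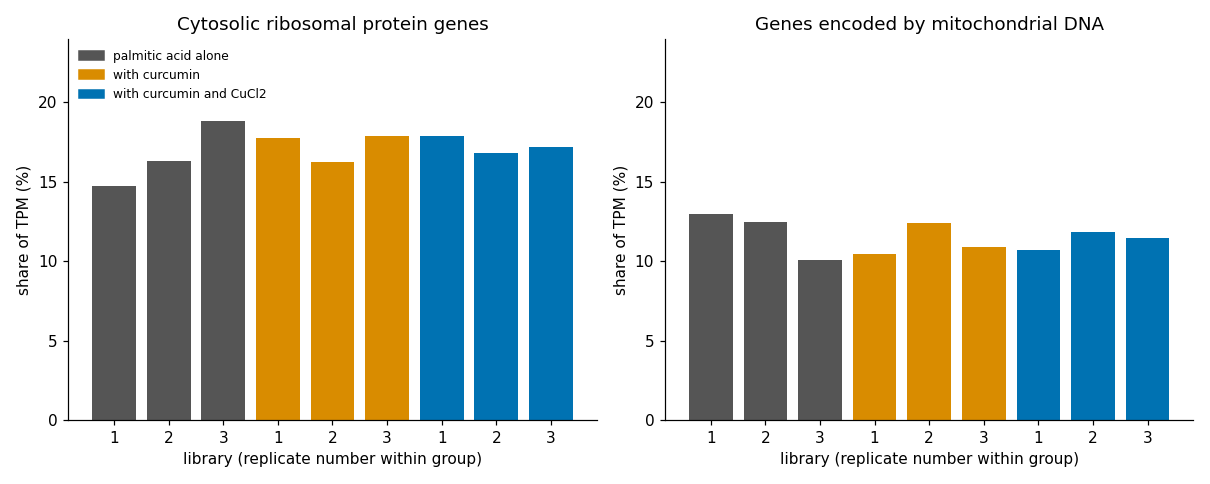
Share of TPM (%) on the 82 cytosolic ribosomal protein genes (left) and on genes encoded by mitochondrial DNA (right) in each of the 9 libraries, 1 bar per library, coloured by group. With palmitic acid alone the left panel runs from 14.7% to 18.8% and the right panel from 13% down to 10.1%, a wider range than in either curcumin group.

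The share on the ribosomal protein genes was high where the mitochondrial share was low. Library 1 with palmitic acid alone had the lowest member share (14.7%) and the highest mitochondrial share (13%) of the 9. Library 3 of the same group had the highest member share (18.8%) and the lowest mitochondrial share (10.1%). All shares of a library add to a fixed total, so these shares are not independent. As a share of TPM outside the mitochondrial genes, the members still ran from 16.9% to 21.0% within palmitic acid alone, against 18.5% to 20.1% with curcumin and 19.1% to 20.0% with curcumin and CuCl2. What made the 3 libraries with palmitic acid alone differ was not tested. In bulk RNA, fewer cells of a type and less RNA per cell cannot be told apart.

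Members moved together between those libraries. In library 1 with palmitic acid alone, 59 of the 82 genes had their lowest level of all 9 libraries, and in library 3, 53 had their highest. Library 3 was above library 1 in 79 members, with a median difference of 0.32 in log2 against −0.24 over all genes tested, and 27.2% of all tested genes were higher in library 3. Once each library was scaled to the median of the members, which by construction removes what they share, the median coefficient of variation over the 9 libraries fell from 8.78% to 5.43%. For 1396 other genes with at least 100 TPM the unscaled median was 8.50%. Under median-of-ratios scaling the members' median was 13.7%, so their spread depends on the scale. The steadiest member was RPL5, at 3.14%, and the most variable was RPL7L1, at 21.3%, followed by RPS28 at 16.9% and RPL36 at 14.8%.

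**Figure D2:**
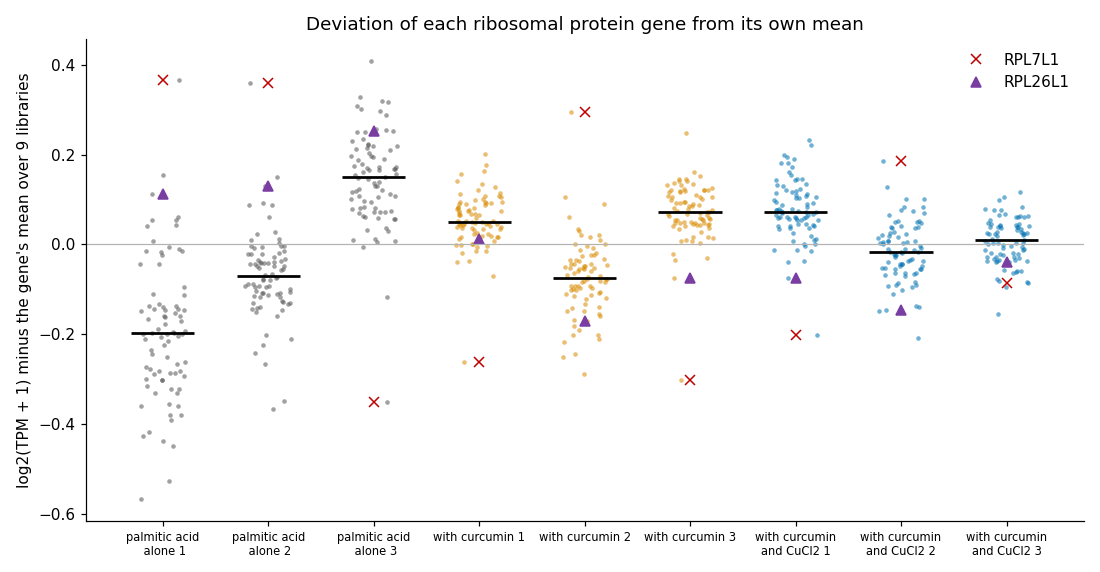
Each point is 1 of the 82 ribosomal protein genes in 1 library, as log2(TPM + 1) minus that gene's mean over the 9 libraries, and black bars are medians over the genes. The points of palmitic acid alone lie mostly below 0 in library 1 and mostly above 0 in library 3; RPL7L1 (crosses) runs the other way, and RPL26L1 (triangles) is above 0 in all 3 libraries with palmitic acid alone.

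Large subunit genes summed to 1.36, 1.3 and 1.29 times the TPM of small subunit genes with palmitic acid alone. The ratio was 1.28, 1.26 and 1.28 with curcumin and 1.28, 1.28 and 1.29 once CuCl2 was added. Before rounding, all 3 libraries with palmitic acid alone lay above all 6 others. The exact two-sided permutation p was 0.1 against each curcumin group, the smallest that this design allows. It was 0.3 after adjustment over the 6 tests. Even complete separation of the groups could not pass the threshold used for single genes, so this test cannot decide whether the ratio differed.

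Mean levels over the 9 libraries ran from 48.6 TPM for RPL7L1 to 6648 TPM for RPS27, a range of 137-fold, with a median of 1969 TPM. Most members lay close together: 56 of the 82 were between 1000 and 3000 TPM, 13 were above and 13 below. Members made up 54 of the 100 most abundant rows of the table. Because TPM is a level per length, these values compare molecules between genes, within the limits on pseudogenes described further on.

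**Figure D3:**
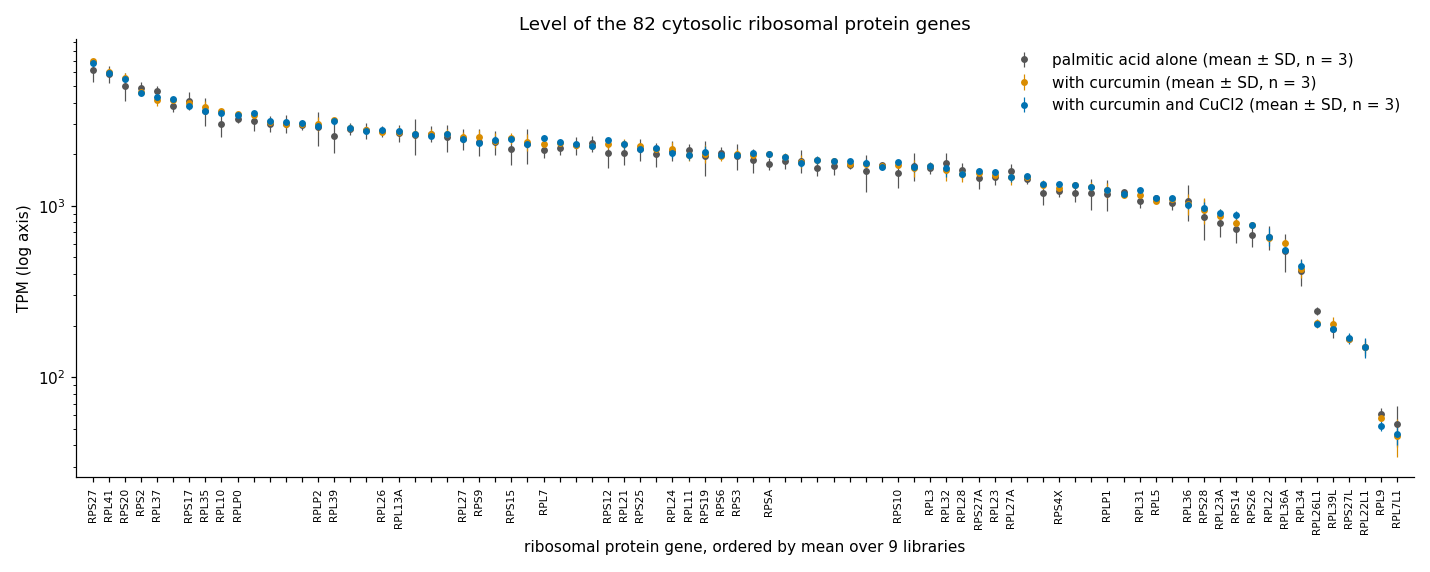
TPM (log axis) of the 82 ribosomal protein genes in order of their mean over the 9 libraries. Points are group means and bars the SD of 3 libraries, with labels for the genes chosen to be named. The 3 groups lie close together along the whole range from RPS27 (6648 TPM) to RPL7L1 (48.6 TPM), and the 5 paralogues and RPL9 lie apart at the low end.

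RPS27, a zinc-binding protein of the small subunit, was the highest member. It stood at 5257, 6147 and 7068 TPM with palmitic acid alone, 7088, 6710 and 7071 under curcumin, and 7164, 6425 and 6899 once CuCl2 was added. Library 1 with palmitic acid alone was the lowest of the 9, and the groups overlapped. RPL41, the smallest ribosomal protein, followed with a mean of 5955 TPM, then RPS20 of the small subunit's head (5341 TPM), RPS2 near the entry of the messenger RNA channel (4660 TPM) and RPL37 of the large subunit (4366 TPM). The ranges of RPS27, RPL41 and RPS20 over the 9 libraries overlapped, but RPS27 was above RPL41, and RPL41 above RPS20, in each of the 9.

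Of the stalk that recruits elongation factors, RPLP0, the base, had 3356 TPM ± 143 (SD over 9 libraries). Its partners RPLP1 and RPLP2, of which a ribosome carries a pair each, had 1214 ± 142 and 2940 ± 363 TPM. In their means the partners were below RPLP0. RPLP1 was below it in each library, and RPLP2 in all but library 3 of palmitic acid alone, where it had 3563 TPM against 3370. RPL5 and RPL11, which bind 5S ribosomal RNA together and MDM2 when outside ribosomes, had 1094 ± 34.4 and 2022 ± 152 TPM. RPL3 beside the peptidyl transferase centre had 1691 ± 77.1 TPM, and RPL23, which faces the small subunit and can also bind MDM2, had 1521 ± 103 TPM. On the small subunit, RPS6, the substrate of S6 kinase, had 1991 ± 125 TPM, RPS3 of the messenger RNA entry channel 1980 ± 181, and RPS19, mutated in Diamond-Blackfan anaemia, 2012 ± 276. RPS27A, which is made as a fusion with ubiquitin, had 1535 ± 123 TPM, and RPS4X, encoded on the X, 1275 ± 76.7.

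The paralogues were low. RPL26L1 averaged 219 TPM, RPL39L 195, RPS27L 168, RPL22L1 150 and RPL7L1 48.6, and the standard genes carried 99.5% of the members' TPM. Relative to the standard gene, RPL22L1 reached 20.1, 26.7 and 22.5 molecules per 100 of RPL22 with palmitic acid alone, 22, 23.2 and 24.1 in the curcumin group, and 23.0, 22.8 and 22 where CuCl2 was added. The groups overlapped. RPS27L, a p53 target, stayed between 2.34 and 3.28 per 100 of RPS27, and RPL39L, known from male germ cells, between 5.79 and 8.89 per 100 of RPL39. Both of these highest ratios came from library 1 with palmitic acid alone. The ratios use only the standard gene's own row. Matching pseudogene rows, described further on, held 27.1% of the summed TPM for RPL22 and 38.5% for RPL39. Ratios of RPL22L1 and RPL39L to those sums would be lower.

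RPL7L1, a nucleolar protein of large subunit assembly despite its name, ran against most other members. It was lower in library 3 of palmitic acid alone than in library 1, whereas 79 of the 82 were higher, and the other exceptions, named after their values were seen, were RPL4 (2953 and 2757 TPM) and RPL14 (1224 and 1203 TPM). RPL7L1 had 61.6, 61.4 and 37.1 TPM with palmitic acid alone, 39.5, 58.7 and 38.4 under curcumin, and 41.3, 54.3 and 44.8 once CuCl2 was added. In each group its lowest library was the one with the highest share on the members, and its highest library the one with the lowest share; what linked them was not tested. Its difference from palmitic acid alone was −0.21 on the log2(TPM + 1) scale with curcumin (95% interval −0.71 to 0.28) and −0.16 with CuCl2 added (−0.66 to 0.34), the widest intervals of the family.

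Curcumin against palmitic acid alone asks what curcumin, and the 12 h with it, did to the members. None of the 82 passed limma's test (adjusted p under 0.05 by Benjamini-Hochberg over 13443 genes that averaged 1 TPM or more), where 1.96% of all genes passed. At an unadjusted p under 0.05 there were 4 members, 4.88%, against 14% of all genes. Groups did not overlap for 7 members, 8.54%, against 16.8% of all genes: 5 were higher with curcumin (8.15% of all genes) and 2 lower (8.61%). The median difference was 0.06 in log2 and 61 of 82 were positive, beside a median of −0.02 and 46.3% positive over all genes tested. Under median-of-ratios scaling the median was 0.09 with 68 positive, beside a median of 0.01 over all genes, and none passed. On TPM the median was 0.10 for the small subunit and 0.04 for the large one.

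The 95% intervals give a range for the difference of each gene's own row, taken 1 gene at a time and not for all 82 together. For 80 of 82 genes the 95% interval lay within 1.5-fold in either direction and for all 82 within 2-fold, and the median interval reached 0.21 in log2 to either side. The exceptions to 1.5-fold were RPL39 and RPL7L1. These ranges hold for TPM, a share of messenger RNA, and not for the amount of RNA per cell. They do not cover TPM placed on matching pseudogene rows, described further on. They rest on the library spread given above. Without library 3 of palmitic acid alone the median difference was 0.15. In that fit 2 members passed, RPS26 and RPSA, beside 4.6% of all genes. Leaving out library 1 instead gave a median of −0.02 with 32 of 82 positive, and none passed. With each library's mitochondrial share as a covariate 7 members passed, RPSA upward and RPL11, RPL26L1, RPL27A, RPL37, RPL38 and RPS2 downward, among 11.2% of all genes, and the median was −0.01.

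RPL39, a small protein that lines the peptide exit tunnel, had the largest positive difference. It measured 1961, 2761 and 2919 TPM with palmitic acid alone, 3134, 3095 and 3204 under curcumin, and 3278, 3080 and 2994 once CuCl2 was added. All 6 libraries with curcumin were above all 3 without, with library 1 of palmitic acid alone far below the other two. The difference was 0.33 ± 0.13 (log2, SE; adjusted p = 0.283) with curcumin, and it did not pass.

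RPL10, which joins the large subunit late in its assembly, near the active centre, had the same order. Its values were 2468, 3215 and 3369 TPM, then 3525, 3600 and 3599, then 3512, 3457 and 3524 in the 3 groups. All 6 libraries with curcumin were again above the 3 without, and library 1 of palmitic acid alone was the lowest. The difference was 0.26 ± 0.10 with curcumin (adjusted p = 0.285).

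RPSA, the small subunit protein also known as the laminin receptor precursor, had 1629, 1716 and 1910 TPM with palmitic acid alone. It had 1989, 1964 and 2088 with curcumin and 2071, 1969 and 1984 once CuCl2 was added. The groups did not overlap, and the difference of 0.20 ± 0.07 with curcumin (adjusted p = 0.185) did not pass. RPLP0 and RPS23, a protein of the decoding centre, were the other members without overlap upward. RPS23 is named here only after its values were seen, because it belongs to that count. RPLP0 measured 3014, 3261 and 3370 TPM against 3445, 3404 and 3489, a difference of 0.10 ± 0.05.

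RPL26L1, the paralogue of RPL26 without a TOP tract in its window, was the lowest in difference. It measured 235, 239 and 260 TPM with palmitic acid alone, 220, 193 and 207 under curcumin, and 207, 197 and 212 once CuCl2 was added. All 6 libraries with curcumin were below all 3 without. The difference was −0.24 ± 0.07 with curcumin (adjusted p = 0.127) and −0.25 ± 0.07 with CuCl2 added (adjusted p = 0.123), the smallest adjusted p of any member in either comparison, and neither passed. The direction was negative under all 23 alternative settings, at −0.29 to −0.20 and −0.31 to −0.21, with an adjusted p of 0.00488 to 0.487 over both. It passed only with the mitochondrial share as a covariate.

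RPL26L1 stood at 9.49, 8.58 and 9 molecules per 100 of RPL26 with palmitic acid alone. The ratio was 8.02, 7.34 and 7.54 with curcumin and 7.36, 7.30 and 7.55 once CuCl2 was added, again without overlap. RPL26 itself, whose product sits at the tunnel exit, overlapped between the groups, with 2480, 2780 and 2884 TPM, then 2742, 2637 and 2743, then 2809, 2697 and 2807. RPL5 was the other member without overlap downward, at 1088, 1103 and 1150 TPM with palmitic acid alone and 1041, 1074 and 1067 with curcumin, a difference of −0.07 ± 0.05 (adjusted p = 0.616). Its partner RPL11 overlapped, with a difference of −0.09 ± 0.09.

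**Figure D4:**
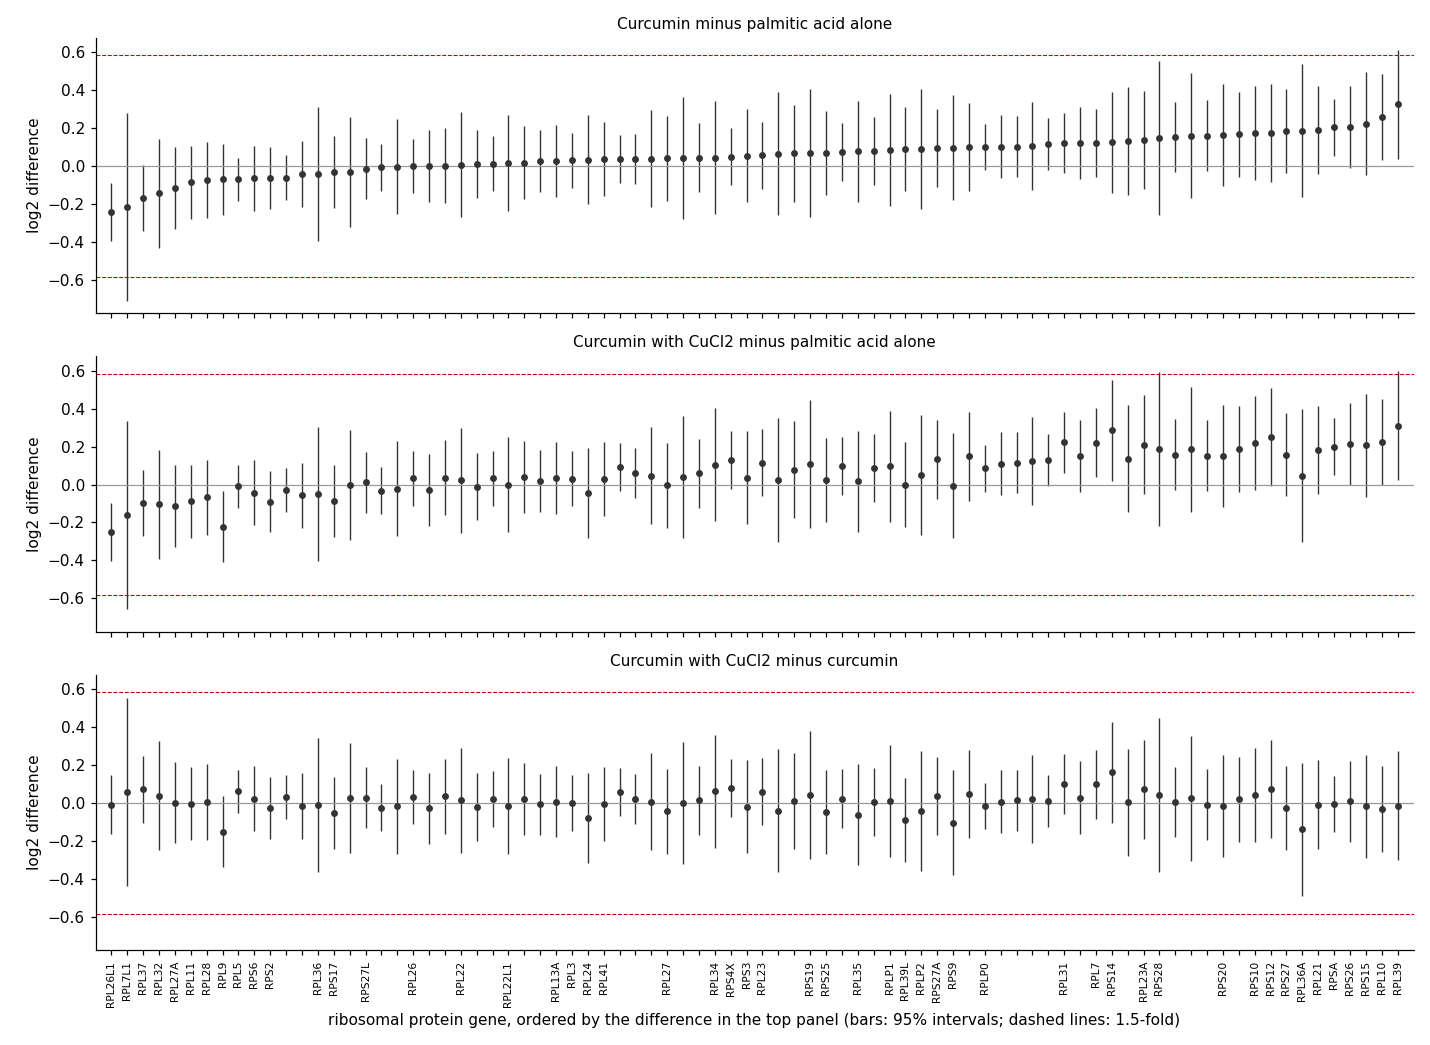
Difference in log2(TPM + 1) of each of the 82 ribosomal protein genes in the 3 comparisons, with 95% confidence intervals from limma. Genes are in the order of the top panel, labelled where chosen to be named, and dashed lines mark 1.5-fold in either direction. Intervals of 80, 79 and 82 genes lie within the dashed lines from top to bottom.

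Curcumin with CuCl2 against palmitic acid alone gave a like set of values, but it shares its 3 control libraries with the comparison above, so it is not a second, independent observation. None of the 82 members passed in limma, beside 1.44% of all genes. At an unadjusted p under 0.05 there were 7 members, 8.54%, against 13.5% of all genes. Groups did not overlap for 8 members, 9.76%, against 19% of all genes: 7 were higher (8.67% of all genes) and 1 lower (10.3%). The median difference was 0.05 with 57 positive, beside −0.03 and 43.8% positive over all genes. It was 0.13 for the small and 0.03 for the large subunit. Under median-of-ratios scaling the median of the members was 0.09 with 70 positive, beside 0.01 over all genes, and none passed. The 95% interval was within 1.5-fold for 79 members and within 2-fold for all 82.

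The members without overlap were RPL10, RPL31, RPL39, RPLP0, RPSA and, named only for this count, RPL15 and RPS23 upward, and RPL26L1 downward. RPL39 differed by 0.31 ± 0.13 (adjusted p = 0.310), RPL10 by 0.23 ± 0.10 (adjusted p = 0.375) and RPSA by 0.20 ± 0.07 (adjusted p = 0.201). RPL31, a protein near the tunnel exit, measured 1027, 992 and 1173 TPM with palmitic acid alone against 1278, 1201 and 1235 with curcumin and CuCl2. Its groups were apart, and the difference was 0.22 ± 0.07 (adjusted p = 0.185). RPS14, the small subunit protein lost in the 5q deletion of myelodysplasia, measured 708, 616 and 865 TPM against 934, 852 and 863. Here the groups overlapped, and the difference was 0.29 ± 0.12 (adjusted p = 0.316).

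Library 3 of palmitic acid alone mattered here too. Without it 7 members passed, all upward, RPL31, RPL7, RPS10, RPS14, RPS26 and RPSA among them, where 3.92% of all genes passed, and the median member difference was 0.16. Without library 1 the median was −0.02 with 39 of 82 positive, and none passed. With the mitochondrial share as a covariate 8 passed, RPL31, RPL7 and RPSA upward and RPL11, RPL26L1, RPL27A, RPL37 and RPS2 downward, among 10.7% of all genes. RPL38, RPL15 and RPS23 are named in these counts after their values were seen.

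Curcumin with CuCl2 against curcumin alone asks what the copper salt added. None of the 82 members passed in limma, and none of all genes did (0%). No member had an unadjusted p under 0.05, against 1.6% of all genes. The groups did not overlap for 5 members, 6.1%, against 6.24% of all genes: RPL15 and RPL5 were higher with CuCl2 (2.63% of all genes), and RPL10, RPL36A and RPL9 lower (3.61%). The median difference was 0.01, with values from −0.15 (RPL9) to 0.16 (RPS14). The 95% intervals lay within 1.5-fold for all 82 members. Leaving out 1 library moved the median between −0.04 and 0.03.

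RPL9, of the large subunit near the factor-binding region, measured 59.6, 56.6 and 57.4 TPM with curcumin and 56.3, 49.0 and 50.9 once CuCl2 was added. The groups just failed to overlap, with a difference of −0.15 ± 0.08 (adjusted p = 1). Its mean of 57.0 TPM over the 9 libraries was second only to RPL7L1 at the low end of the family. The names and values in the next paragraphs on pseudogenes were chosen after they had been seen.

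Ribosomal protein genes have many processed pseudogenes, copies of the spliced messenger RNA elsewhere in the genome, and reads that match a gene and its copy alike are divided between them by the counting program. Of 332 pseudogene rows with a mean of at least 1 TPM, 58 had a transcript that matched a member's at 90% identity or more over at least 50% of the shorter one. They belonged to 33 members, and 10 rows reached 100 TPM. Together they held 12013 TPM, 1.20% of the total, much less than the members, but in single genes they held most of the summed TPM. TPM is divided by length, so a read adds more TPM to a short row, and shares of TPM are not shares of reads. RPL39P3 and RPS28P7, for example, matched over 156 and 210 bases.

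RPL9P9, at 99.8% identity with RPL9, had 1420 TPM where RPL9 itself had 57.0, so 96.1% of the sum was on pseudogene rows, and the sum would move RPL9 from rank 81 to rank 63. For RPL36A, the row AC116533.1 had 2417 TPM against 568, which is 81.0% of the sum and a move from rank 75 to rank 17. For RPL23A, RPL23AP42 had 2688 TPM against 857, and the pseudogene share of the sum was 76.0%, with a move from rank 71 to rank 10.

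RPS26, at the messenger RNA exit, had 740 TPM and its match AC004057.1, identical over the aligned part, 1577. All matching rows held 68.1% of the sum, which would move RPS26 from rank 73 to rank 32. RPS28 had 925 TPM and RPS28P7 869, with 48.6% of the sum on pseudogene rows and a move from rank 70 to rank 49. RPL39 had 2936 TPM and RPL39P3 1835, again at 100% identity, and the sum would move it from rank 16 to rank 5. The order of the members by level therefore depends, for these 6 genes at least, on where such reads are placed. How the reads were divided within these pairs cannot be told from TPM, so the values of the 6 genes are uncertain one by one.

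**Figure D5:**
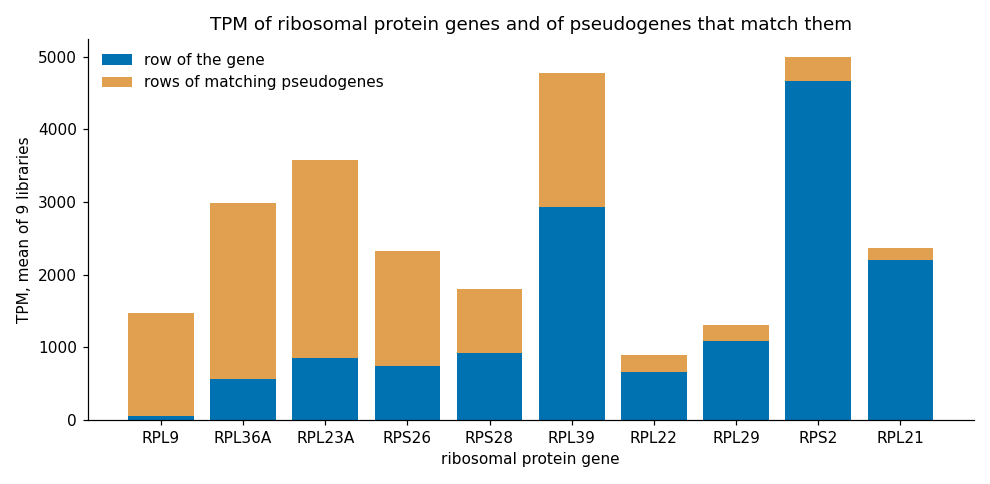
Mean TPM over the 9 libraries of the 10 ribosomal protein genes with more than 5% of their summed TPM on matching pseudogene rows; the lower part of each bar is the gene's own row and the upper part the pseudogene rows. For RPL9, RPL36A, RPL23A and RPS26 most of the bar is pseudogene rows, and for RPL39 the pseudogene rows add 1839.6 TPM.

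The division mattered for RPL39. RPL39P3 measured 1355, 1766 and 2459 TPM with palmitic acid alone, 2212, 1336 and 2880 under curcumin, and 1528, 1347 and 1628 once CuCl2 was added. It varied more between libraries than RPL39 did, and its groups overlapped. With the rows summed, the difference of RPL39 from palmitic acid alone went from 0.33 to 0.28 ± 0.17 with curcumin (adjusted p = 0.519) and from 0.31 to 0.10 ± 0.17 with CuCl2 added (adjusted p = 0.891). RPL9 went from −0.22 to 0.04 ± 0.11 with CuCl2 added (adjusted p = 0.934). No member passed in any of the 3 comparisons after summing.

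Rows of transcripts that run from a member into its neighbour were small beside most members. RPL36A-HNRNPH2 had 228 TPM against 568 for RPL36A, RPL17-C18orf32 had 63.2 TPM and RPS10-NUDT3 8.48 TPM.

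Components outside the name pattern had levels like the members. FAU, which makes RPS30 as a fusion, had 1120 TPM, RPL36AL, a twin of RPL36A, 706, and RACK1, a scaffold on the small subunit's head, 2667. None of these 3 passed limma's test or an unadjusted p of 0.05 in any comparison.

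The wider machinery gave few calls, in lists chosen with earlier results known. Of 20 elongation factors and other genes with TOP messenger RNAs, none rose or fell in any comparison, with medians of 0.01 and 0.03 against palmitic acid alone and 1 and 2 genes at an unadjusted p under 0.05. Over all genes 1.96% and 1.44% passed in those comparisons, and 14% and 13.5% had an unadjusted p under 0.05. Differences in this list ran from −0.20 to 0.16 with curcumin and from −0.11 to 0.16 with CuCl2 added, so both directions occurred. EEF1A1, which brings aminoacyl-tRNA to the ribosome, was 0.15 ± 0.08 higher with curcumin and CuCl2 (adjusted p = 0.511). None of 78 mitochondrial ribosomal protein genes passed, with medians of 0.04 and 0.05 and 3 and 4 genes at an unadjusted p under 0.05. None passed among 20 genes of RNA polymerase I (3 and 4 at that level), 13 chaperones and transport factors of ribosomal proteins (0 and 0), 18 host genes of small nucleolar RNAs (4 and 3) and 24 genes of ribosome quality control (1 and 3). Between the curcumin groups none of these lists had a call.

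In the lists with a call, the genes at an unadjusted p under 0.05 were 3 and 4 of 50 ribosome assembly factors, 4 and 6 of 26 initiation factors, 6 and 4 of 14 genes of the MYC and p53 side of ribosomal stress, and 6 and 5 of 35 tested genes of mTORC1 and TOP control. Of the assembly factors 1 fell and none rose in each comparison with palmitic acid alone, a share near the 1.96% and 1.44% of all genes. EBNA1BP2, a nucleolar factor of large subunit assembly, fell with curcumin from 341 ± 24.4 to 255 ± 15.2 TPM (SD, n = 3), by 0.42 ± 0.07 on the log2 scale (limma adjusted p = 0.0218), and with CuCl2 added to 264 ± 4.25 TPM, by 0.37 ± 0.07 (adjusted p = 0.0377). Of the initiation factors 1 passed with curcumin, EIF2B2, a subunit of the exchange factor for eIF2. It fell from 92.4 ± 1.43 to 72.8 ± 3.65 TPM, by 0.34 ± 0.07 on the log2 scale (limma adjusted p = 0.0389). With CuCl2 added it had 75.5 ± 3.64 TPM, a difference of −0.29 ± 0.07 that did not pass (adjusted p = 0.0754). On the MYC and p53 side, MYC, a driver of ribosome production, fell with curcumin from 192 ± 20.9 to 143 ± 6.72 TPM, by 0.42 ± 0.08 (limma adjusted p = 0.0412). With CuCl2 added MYC had 149 ± 6.36 TPM, a difference of −0.36 ± 0.08 that did not pass (adjusted p = 0.0776). Among the genes of mTORC1 and TOP control, LAMTOR5, part of the complex that holds mTORC1 at the lysosome, rose with curcumin and CuCl2 from 291 ± 21.5 to 366 ± 9.86 TPM, by 0.33 ± 0.07 (limma adjusted p = 0.0474). With curcumin alone LAMTOR5 had 353 ± 13.1 TPM, a difference of 0.28 ± 0.07 that did not pass (adjusted p = 0.0744).

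These 5 calls were close to the threshold. Over the 23 alternative settings EBNA1BP2 passed in 11 with curcumin and in 10 with CuCl2 added, and EIF2B2, MYC and LAMTOR5 in 9 each, all in 1 direction. Leaving out library 3 of palmitic acid alone kept all 5, and leaving out any other single library kept at most 1 of them.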

How the data were processed

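TPM values of 9 libraries, 3 per group, were used as the authors deposited them in a table of 62703 rows. Per the labels' protocols, RNA was taken with TRIzol and made into stranded libraries of polyadenylated RNA. HISAT2 2.1.0, RSEM 1.3.3 and the build GRCh38.p13 appear in the submitters' processing notes, without their roles. TPM keeps no read depth, so no count model and no counting interval was used. RSEM shares reads that match several genes among them, which makes rows of near-identical genes uncertain. Columns were matched to samples by name, and doses and hours came from the labels.

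Values were taken as log2(TPM + 1), a scale that understates changes of low genes. The 13443 genes averaging 1 TPM or more, with 99.7% of the TPM, entered limma 3.58.1 (R 4.3.3) with a mean per group over all 9 libraries and a variance trend, two-sided, with Benjamini-Hochberg adjustment at 0.05. All adjusted p-values of single genes are from limma. Shares and ratios of summed TPM were compared by exact permutation. The procedure was tested on simulated data. The members, the 11 gene lists and the marker lists were chosen with earlier results of these data known.

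Named are members past the threshold, the 10 highest and 10 lowest differences of each comparison, the 5 highest and 5 lowest levels, the 5 most variable members and a set of genes with well-known roles, 51 in all, plus list genes past the threshold; others are marked in the text. Some items are not reported here. Pseudogene transcripts were matched with BLAST+ 2.17.0 to member transcripts of GENCODE 29. Promoter windows are RefSeq's. Alternatives were pseudocounts of 0.1 and 5, no filter, a minimum of 5 TPM, median-of-ratios scaling, rescaling without mitochondrial genes or without the members, sums with numbered pseudogenes, only the 2 groups, a replicate block, no variance trend, the mitochondrial share as covariate and each library left out. After the data were seen, sums with sequence-matched pseudogenes and scaling to the members' median were added. Plots were made in Python 3.11.15 (matplotlib 3.10.9).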

Additional observations from a re-analysis of the deposited data

How the results depend on the processing

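In each comparison 0 members passed the threshold, and 23 alternatives were tried. With the mitochondrial share as covariate, 7 members passed for curcumin and 8 for curcumin with CuCl2 against palmitic acid alone. When each library was left out in turn, 0 to 2 and 0 to 7 members passed, each time above 0 only without library 3 of palmitic acid alone. Without that library 4.6% and 3.92% of all genes passed. No other alternative called a member, and between the curcumin groups none did. Leaving out 1 library moved the median member difference between −0.02 and 0.15 for curcumin, −0.02 and 0.16 for curcumin with CuCl2, and −0.04 and 0.03 between these groups, so its sign rests on single libraries. Over the 51 named members, 66, 70 and 85 of 1173 estimates per comparison changed sign, none of them past the threshold on either side.

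Over all genes, 264 and 194 passed against palmitic acid alone. The counts were 104 and 114 with no filter, 35 and 65 with only the 2 groups fitted, 130 and 133 with no variance trend, 44 and 46 on the members' median scale, and 1505 and 1436 with the mitochondrial share as covariate. They ran from 54 to 619 and from 46 to 527 with 1 library left out. The cause was not tested. With the replicate number as a block (replicate block) 0 members passed in each comparison, 177 and 147 of all genes did, and 3 of the 5 calls in other gene lists stayed. Deviations of same-numbered libraries from their group means correlated at −0.27 to 0.25, above 0.1 in 2 of 9 pairs. With means of only 3 libraries, these values cannot settle whether the numbers mark a shared culture or day. Depth cannot be weighed, since TPM keeps none.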
